A study of Mus musculus with 28 samples.

Results

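The MHC class I presentation machinery was followed here as 10 genes out of the 43629 genes counted in cerebral cortex of Glt25d2 BacTRAP mice. The 10 were taken by name, through the gene symbols of their Ensembl identifiers: the classical heavy chains H2-K1 and H2-D1, the light chain B2m, the peptide transporter genes Tap1 and Tap2, the loading factor Tapbp, the transactivator Nlrc5 and the immunoproteasome subunits Psmb8, Psmb9 and Psmb10. All 10 passed the filter on low counts in both fractions. BacTRAP mice carry a tagged ribosomal protein, here driven by regulatory sequence of Glt25d2 (now named Colgalt2), a gene used as a marker of projection neurons of cortical layer 5. RNA recovered on those ribosomes is the immunoprecipitate (IP), and whole cortex RNA taken before this step is the input.

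In the disease groups, experimental autoimmune encephalomyelitis (EAE) was actively induced with MOG35-55, a peptide of a myelin protein, and EAE serves as a mouse model of multiple sclerosis. The groups were acute EAE at day 15 (5 IP and 5 input libraries), chronic EAE at day 30 (4 IP and 4 input libraries) and healthy mice (5 IP and 5 input libraries), 28 libraries in all. All groups carried the same Glt25d2 BacTRAP genotype. Strain, age and sex, and the treatment of the healthy mice other than the absence of EAE, were not given in the sources used here. Whether the libraries within a group are separate animals is not stated, so every p-value below is set against a library-to-library spread that may be technical only.

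MHC class I molecules carry peptides of cytosolic proteins to the cell surface, where CD8 T cells read them. The proteasome cuts the peptides, the TAP transporter moves them into the endoplasmic reticulum, tapasin holds the empty class I molecule at the transporter until a peptide is bound, and beta-2-microglobulin completes the complex. Interferon-gamma is a strong inducer of the pathway, through IRF1 and the transactivator NLRC5, and it also exchanges the catalytic subunits of the proteasome for the immunoproteasome forms. Resting neurons are known for low class I expression.

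The genes lie close together in part. Per the count table (GRCm38), 7 of the 10 are on chromosome 17, 2 on chromosome 8 (Nlrc5 at chr8:94472763-94527272, plus strand, and Psmb10 at chr8:105935728-105938392, minus strand) and B2m is on chromosome 2 (chr2:122147686-122153083, plus strand). Psmb9, Tap1, Psmb8 and Tap2 lie in 1 block of 34334 bases. Windows of 300 bases around the start site (250 before it and 50 after it) were held for 8 of the 10 genes in the RefSeq GRCm38.p6 tables. The 4 windows below are shown because these genes moved together and have different roles: the pair of heavy chains, the light chain, and Tap1, whose window overlaps that of Psmb9. Capitals mark matches, on either strand, to 5 motifs. GAAANNGAAA is the core of the interferon-stimulated response element, TTCNNNGAA the gamma-activated site and GGGNNTTNCC the kappa B site. TGACG is the core of the cyclic AMP response element, which is part of the X box of class I promoters. The box CCAAT reads as ATTGG on the other strand.
H2-K1, chr17:34000284-34000583, minus strand: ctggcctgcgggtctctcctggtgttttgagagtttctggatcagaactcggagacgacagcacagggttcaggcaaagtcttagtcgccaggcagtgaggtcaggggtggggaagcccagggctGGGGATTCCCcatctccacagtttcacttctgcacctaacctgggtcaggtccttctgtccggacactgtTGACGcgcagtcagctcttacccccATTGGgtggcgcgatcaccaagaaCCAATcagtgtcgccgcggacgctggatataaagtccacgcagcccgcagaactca
H2-D1, chr17:35262844-35263143, plus strand: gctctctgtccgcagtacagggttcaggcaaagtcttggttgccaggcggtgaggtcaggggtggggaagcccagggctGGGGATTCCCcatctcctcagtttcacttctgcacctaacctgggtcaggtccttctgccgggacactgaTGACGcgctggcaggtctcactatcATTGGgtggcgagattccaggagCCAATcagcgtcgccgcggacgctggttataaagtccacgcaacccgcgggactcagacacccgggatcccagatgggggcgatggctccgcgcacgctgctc
B2m, chr2:122147437-122147736, plus strand: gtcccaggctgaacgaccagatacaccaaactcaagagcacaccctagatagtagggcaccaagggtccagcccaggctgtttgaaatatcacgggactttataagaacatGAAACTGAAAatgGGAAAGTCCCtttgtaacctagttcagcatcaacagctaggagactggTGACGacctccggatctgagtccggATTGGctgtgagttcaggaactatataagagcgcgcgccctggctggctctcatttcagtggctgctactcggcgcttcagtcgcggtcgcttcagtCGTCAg
Tap1, chr17:34187306-34187605, plus strand: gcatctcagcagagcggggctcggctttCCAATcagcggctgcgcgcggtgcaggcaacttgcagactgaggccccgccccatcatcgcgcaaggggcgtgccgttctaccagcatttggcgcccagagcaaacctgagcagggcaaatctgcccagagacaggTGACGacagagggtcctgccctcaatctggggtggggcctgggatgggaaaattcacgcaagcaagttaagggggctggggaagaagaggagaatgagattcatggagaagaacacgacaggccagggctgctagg
In the windows of H2-K1 and H2-D1 the kappa B match was the same GGGGATTCCC, which began 125 bases before the start site of H2-K1 and 171 bases before that of H2-D1. B2m had a kappa B match on the minus strand, GGGACTTTCC, and, with 3 bases between them, the only match of these 8 genes to the response element core, GAAACTGAAA, before it. Kappa B matches were thus held by 3 of the 8 genes, against 4.79% of the 32851 windows of all genes, and the response element core by 1 of 8, against 3.44% of all windows. The gamma-activated site had 1 match among the 8, TTCCCAGAA in the window of Psmb8, against 8.3% of all windows, and since it reads as a match on both strands it was counted once. TGACG was found in 5 of the 8 genes (H2-K1, H2-D1, B2m, Tap1 and Psmb9), against 20.8% of all windows, and CCAAT in 6 of the 8 (the same 5 and Tapbp), against 37.4%. Matches to different motifs did not overlap in these windows. In H2-K1, H2-D1 and B2m, TGACG was followed after 20 bases by ATTGG, a pairing noticed after the sequences were seen. It was found in 31 of the 32851 windows (0.0944%). H2-K1 had a further window, offset by 14 bases, with the same matches. The start site of the window shown is the start of the counted gene model. The windows of Tap1 and Psmb9 run on opposite strands and share 275 bases, with start sites 226 bases apart, so their matches are the same letters. These matches describe letters, not binding.

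Input libraries held 17848273 to 27915940 counts and IP libraries 6198088 to 21229550. The spread among replicate libraries, given as edgeR's common biological coefficient of variation, was 0.101 in the input and 1.06 in the IP, so the IP tests are much less precise. As a check of the fraction labels, 10 markers of layer 5 projection neurons summed to 1230 to 1620 CPM (counts scaled to library size) in healthy IP libraries and 781 to 839 CPM in healthy input libraries. The IP was not free of other cells: 12 astrocyte markers summed to 911 to 1270 CPM in healthy IP libraries and 1450 to 1820 CPM in healthy input libraries. In chronic input 4, all 10 genes were at their highest among the chronic input libraries, and chronic IP 4 held the highest H2-K1 and H2-D1 of all IP libraries, so chronic results that changed without library 4 are also given without it.

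In the input of acute EAE, all 10 genes rose over healthy cortex (edgeR quasi-likelihood test, Benjamini-Hochberg adjusted p under 0.05), where 11.1% of the 16381 genes tested rose. The median log2 change of the 10 was 3.17, against -0.01 for all genes tested. No acute input library overlapped the healthy input range for any of the 10, a separation with higher values that 9.11% of the genes tested showed. In bulk cortex, more cells that express a gene and more RNA per cell cannot be told apart.

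The heavy and light chains formed the abundant end of the pathway. H2-K1 stood at 70.1, 41.5, 77.4, 63.0 and 88.0 CPM in acute input libraries, against 3.80, 5.77, 7.15, 4.33 and 4.94 CPM in healthy input libraries. Every acute library was far above the highest healthy one, and acute library 2 was the lowest of its group, as it was for 9 of the 10 genes. The log2 change was 3.71 ± 0.49 (SE, n = 5 and 5, edgeR adjusted p = 3.03e-04). H2-D1, the other classical heavy chain, averaged 103 ± 21.8 CPM in acute input and 16.8 ± 3.99 CPM in healthy input (SD), a log2 change of 2.62 ± 0.40. B2m, the light chain shared by all class I molecules, had 173, 113, 166, 145 and 174 CPM in acute input libraries, against 32.6, 29.4, 37.9, 30.4 and 32.1 CPM in healthy input libraries. The groups were far apart although B2m was already abundant in healthy cortex, and its log2 change was 2.25 ± 0.31 (edgeR adjusted p = 3.84e-04).

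Peptide transport and loading rose unevenly. Tap1, a subunit of the transporter, averaged 17.5 ± 4.14 CPM in acute input and 1.10 ± 0.185 CPM in healthy input, a log2 change of 3.97 ± 0.37. Its partner Tap2 averaged 9.23 ± 1.95 CPM in acute input and 2.10 ± 0.392 CPM in healthy input, with a smaller log2 change of 2.13 ± 0.31. Tapbp, which encodes tapasin, changed less again, with 28.1 ± 4.78 CPM in acute input and 12.9 ± 1.53 CPM in healthy input, a log2 change of 1.12 ± 0.17. The edgeR adjusted p-values of these 3 genes were 7.67e-06, 2.07e-04 and 3.77e-04, and the sizes were not tested against each other.

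Nlrc5, the transactivator of class I genes, had the largest log2 change of the 10. Its acute input libraries had 14.7, 10.1, 19.0, 10.4 and 8.84 CPM, against 0.600, 0.549, 0.394, 0.433 and 0.444 CPM in healthy input libraries. It was low in every healthy library and more abundant in every acute one, with a log2 change of 4.68 ± 0.29 (edgeR adjusted p = 5.58e-08). By p-value it ranked 5 among the 16381 genes tested.

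The immunoproteasome subunits did not move as 1 unit. Psmb8 averaged 35.3 ± 10.6 CPM in acute input and 1.68 ± 0.403 CPM in healthy input, a log2 change of 4.39 ± 0.33, and Psmb9 averaged 24.5 ± 5.99 CPM in acute input and 1.25 ± 0.298 CPM in healthy input, a log2 change of 4.28 ± 0.29. Psmb10 had 83.6, 73.2, 92.6, 74.8 and 82.7 CPM in acute input libraries, against 57.3, 52.6, 54.2, 54.7 and 52.1 CPM in healthy input libraries. Its groups did not overlap and its log2 change of 0.59 ± 0.06 passed the test (edgeR adjusted p = 2.49e-06), but it was high in healthy cortex already.

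**Figure D1:**
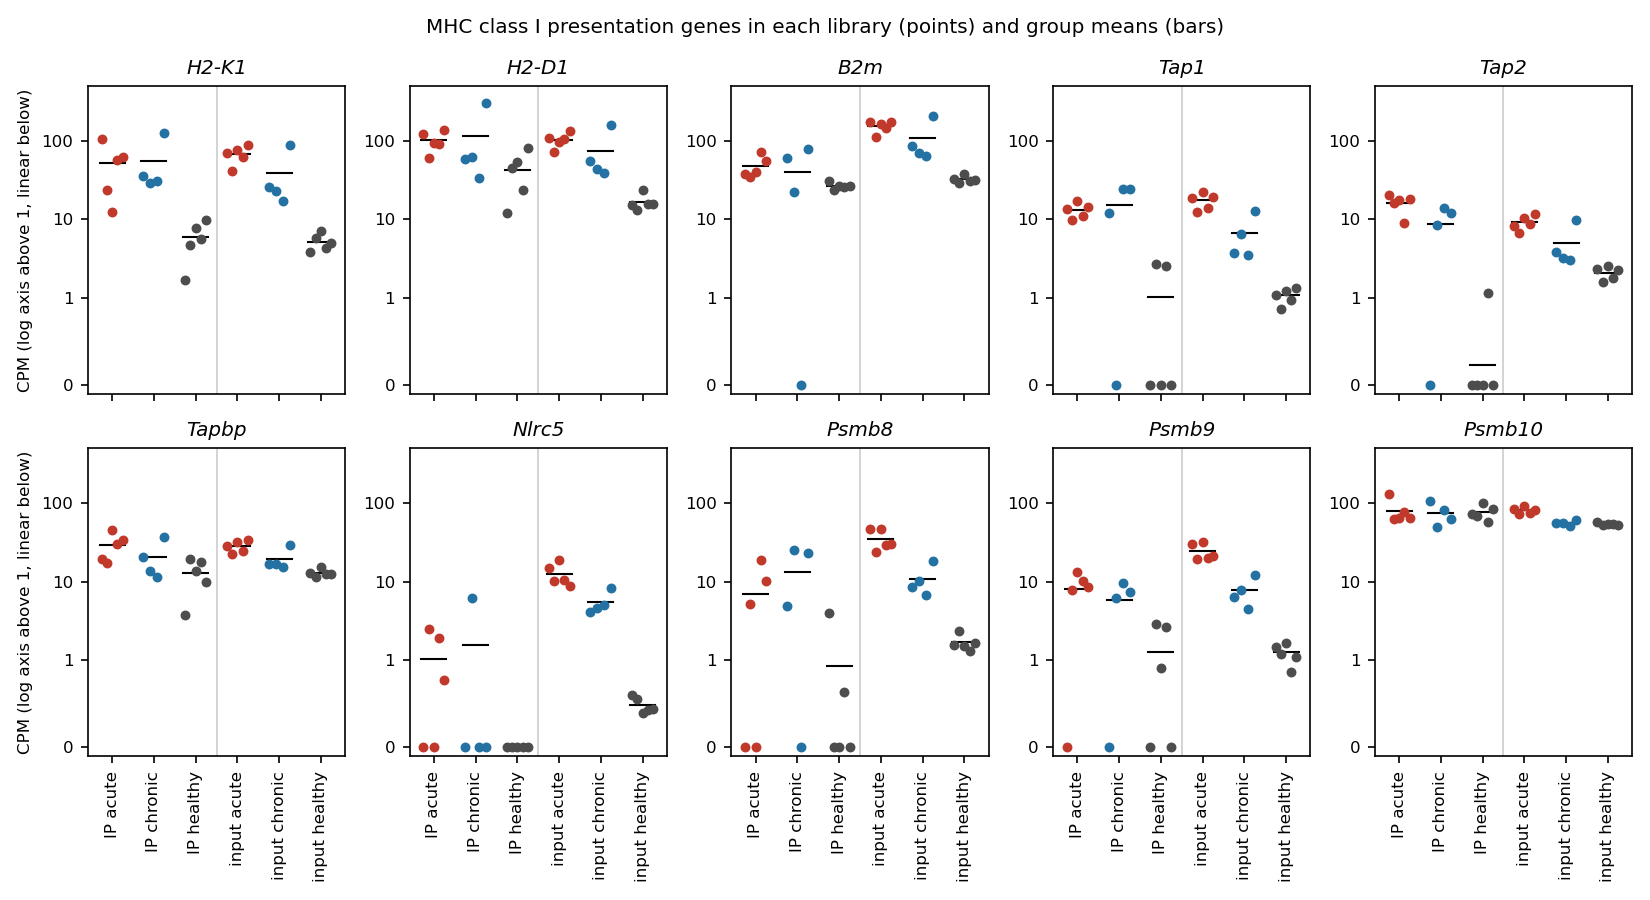
CPM of the 10 genes in each of the 28 libraries (points, 1 panel per gene, replicates in number order within a group) with the group mean (bar), IP groups left of the grey line and input groups right of it, on an axis that is logarithmic above 1 CPM and linear below. In the input, acute libraries lie above all healthy libraries in every panel, while in the IP 30 of 140 values lie at 0.

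Per kilobase of exon, which allows genes to be set side by side, the order of levels changed with disease. In acute input, B2m led with 179 ± 30.1 CPM per kilobase, followed without overlap by Psmb10 with 64.1 ± 6.12 and H2-D1 with 40.1 ± 8.46, then H2-K1 with 26.1 ± 6.69 and Psmb8 with 12.9 ± 3.86, neighbours whose libraries overlapped. In healthy input, Psmb10 with 42.7 ± 1.62 and B2m with 37.8 ± 3.80 CPM per kilobase overlapped at the top, H2-D1, Tapbp and H2-K1 followed at 6.50 ± 1.55, 3.91 ± 0.464 and 1.99 ± 0.504 without overlap, and Psmb8, Tap2, Psmb9 and Tap1 each overlapped the gene before. Nlrc5 was lowest in both, at 1.65 ± 0.550 CPM per kilobase in acute input and 0.0633 ± 0.0113 in healthy input.

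In the chronic input, 7 of the 10 genes rose over healthy cortex, where 2.33% of all genes tested rose: H2-K1, H2-D1, B2m, Tap1, Nlrc5, Psmb8 and Psmb9. The median log2 change of the 10 was 2.37, against 0.00 for all genes tested. In 8 of the 10 no chronic library overlapped the healthy range, which 3.93% of all genes tested showed with higher values. Nlrc5 had 4.11, 4.58, 5.01 and 8.27 CPM in chronic input libraries, against 0.394 to 0.600 CPM in healthy input libraries. It was clear of the healthy range in every chronic library, with a log2 change of 3.48 ± 0.32 (edgeR adjusted p = 4.69e-05), and ranked 2 by p-value among all genes tested. H2-K1 had 25.7, 23.1, 17.1 and 89.3 CPM in chronic input libraries, a log2 change over healthy of 2.90 ± 0.51 (edgeR adjusted p = 0.0105), which was 2.08 without chronic 4. B2m rose by a log2 change of 1.73 ± 0.32 (0.0134), H2-D1 by 2.15 ± 0.42 (0.0181), Tap1 by 2.58 ± 0.40 (0.00411), Psmb8 by 2.69 ± 0.36 (0.00233) and Psmb9 by 2.63 ± 0.31 (8.76e-04, edgeR adjusted p-values in brackets). The other 3 did not pass: Tap2 had a log2 change of 1.26 ± 0.33 (edgeR adjusted p = 0.0648), although its groups did not overlap, Tapbp 0.60 ± 0.18 (0.12) and Psmb10 0.05 ± 0.07 (0.809). Without chronic 4 the same 7 passed by edgeR, with a log2 change over healthy of 1.44 for H2-D1, 1.19 for B2m, 2.05 for Tap1, 3.21 for Nlrc5, 2.33 for Psmb8 and 2.32 for Psmb9, and 0.68 for Tap2, which did not pass. The H2-D1 call was lost without healthy input 1, 2 or 5 (edgeR adjusted p 0.0514 to 0.0537), and voom with library weights kept 4 of the 7 (H2-D1, B2m, Nlrc5 and Psmb9).

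Set against the acute input, the chronic input was lower in 5 of the 10 genes, where 4.74% of all genes tested were lower: Tap1, Nlrc5, Psmb8, Psmb9 and Psmb10. The log2 changes of these 5 were -1.39 ± 0.32 for Tap1, -1.20 ± 0.23 for Nlrc5, -1.69 ± 0.29 for Psmb8, -1.65 ± 0.24 for Psmb9 and -0.54 ± 0.07 for Psmb10, with edgeR adjusted p-values of 0.0187, 0.00463, 0.00444, 0.00170 and 3.07e-04. For Nlrc5 and the 3 immunoproteasome subunits, 4 of the 10, no chronic library reached the acute range, a separation with lower values that 6.38% of all genes tested showed. Psmb10 had 55.5, 55.7, 51.5 and 61.6 CPM in chronic input libraries, close to its healthy values. H2-K1, H2-D1, B2m, Tap2 and Tapbp did not pass, with log2 changes between -0.87 and -0.47.

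That division depended on chronic input 4. It had 89.3 CPM of H2-K1, against 17.1 to 25.7 CPM in the other 3 chronic input libraries and 41.5 to 88.0 CPM in acute input libraries. For H2-K1, H2-D1 (160.3 CPM) and B2m (208.8 CPM) it lay above every acute library, for Tap1, Tap2 and Tapbp within the acute range, and for Nlrc5 (8.27 CPM), Psmb8 (18.1 CPM), Psmb9 (12.2 CPM) and Psmb10 (61.6 CPM) below it. The other 3 chronic libraries lay below the acute range for all 10 genes. Without chronic 4, all 10 genes were lower in chronic than in acute input, where 4.27% of genes tested were lower, and 7 were still higher than in healthy input, where 1.36% were. Library 4 also held more RNA of glial and immune markers: 12 microglial markers summed to 255 CPM, against 123 to 150 CPM in the other chronic input libraries, 13 leukocyte markers to 38.8 CPM, against 15.2 to 27.2 CPM, and 12 oligodendrocyte markers to 4362 CPM, against 2913 to 3168 CPM. Their part in the class I values was not tested.

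**Figure D2:**
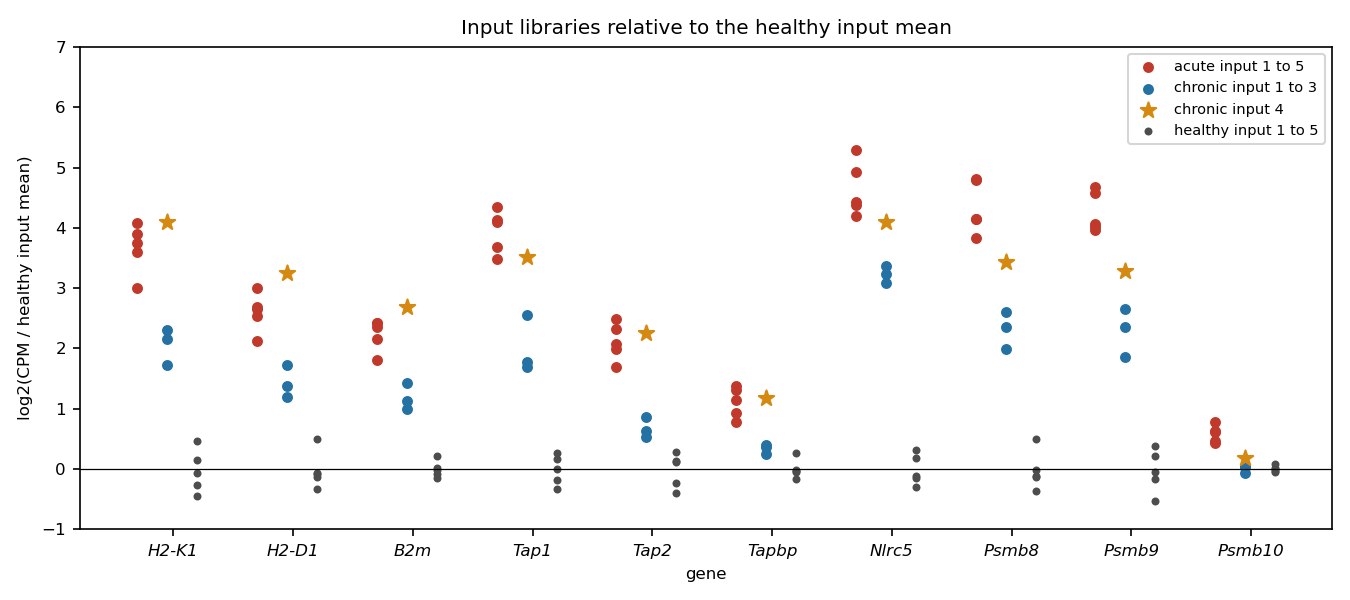
Log2 of each input library's CPM over the mean of the 5 healthy input libraries, for the 10 genes, with acute (red), chronic (blue) and healthy (grey) libraries as points and chronic input 4 as a star. The star lies above the acute points for H2-K1, H2-D1 and B2m and below them for Nlrc5 and the 3 immunoproteasome subunits, and the other chronic points lie below the acute points for every gene.

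Each immunoproteasome subunit replaces a constitutive one, so its share of the pair (counts per kilobase of Psmb8 over Psmb8 plus Psmb5, Psmb9 over Psmb9 plus Psmb6, Psmb10 over Psmb10 plus Psmb7) was computed per library. In the input, the Psmb8 share was 8.15% ± 2.43 in acute EAE, 2.84% ± 1.23 in chronic EAE and 0.442% ± 0.124 in healthy mice (SD, n = 5, 4 and 5). The Psmb9 share followed closely, at 8.07% ± 1.95 in acute, 3.08% ± 1.30 in chronic and 0.489% ± 0.107 in healthy input. For both, none of the 3 groups overlapped. The sizes depend on the exon lengths. Without division by length, acute input shares were 15.9% to 27.9% for Psmb8, 11.85% to 18.6% for Psmb9 and 26.6% to 32.6% for Psmb10. The Psmb10 share was 28.2% ± 2.41 in acute, 23.7% ± 1.51 in chronic and 21.9% ± 0.479 in healthy input, so it was high throughout and moved least in relative terms. By exact two-sided permutation tests the acute shares differed from the healthy ones with p = 0.00794 and the chronic shares from the healthy ones with p = 0.0159, each the smallest value the design allows, and the adjusted p over 18 tests was 0.0357 in all 6 cases. Chronic against acute passed for Psmb8 and Psmb9 (exact permutation p = 0.0159, adjusted p = 0.0357) and not for Psmb10 (exact permutation p = 0.0317, adjusted p = 0.0635). The constitutive genes Psmb5, Psmb6 and Psmb7 did not pass in acute against healthy input by edgeR (0 of 3, 2 at an unadjusted p under 0.05), with log2 changes of 0.06, 0.13 and 0.10. In chronic against healthy input 0 of 3 passed by edgeR (1 at an unadjusted p under 0.05), with log2 changes from -0.105 to -0.05. Psmb10 itself did not pass there (log2 change 0.05), so its higher chronic share was not a called rise of Psmb10. In chronic against acute input 2 of the 3 constitutive genes were lower, and the 3 log2 changes ran from -0.206 to -0.109.

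In the IP the shares were lower and scattered. The Psmb8 share was 1.35% ± 1.58 in acute, 1.59% ± 1.51 in chronic and 0.132% ± 0.244 in healthy IP, and the Psmb9 share was 4.76% ± 4.68 in acute, 2.14% ± 1.99 in chronic and 0.359% ± 0.422 in healthy IP. Groups overlapped for all 3 shares and no IP comparison passed the exact permutation test after adjustment, the smallest being acute against healthy for Psmb9 (p = 0.0476, adjusted p = 0.0857).

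**Figure D3:**
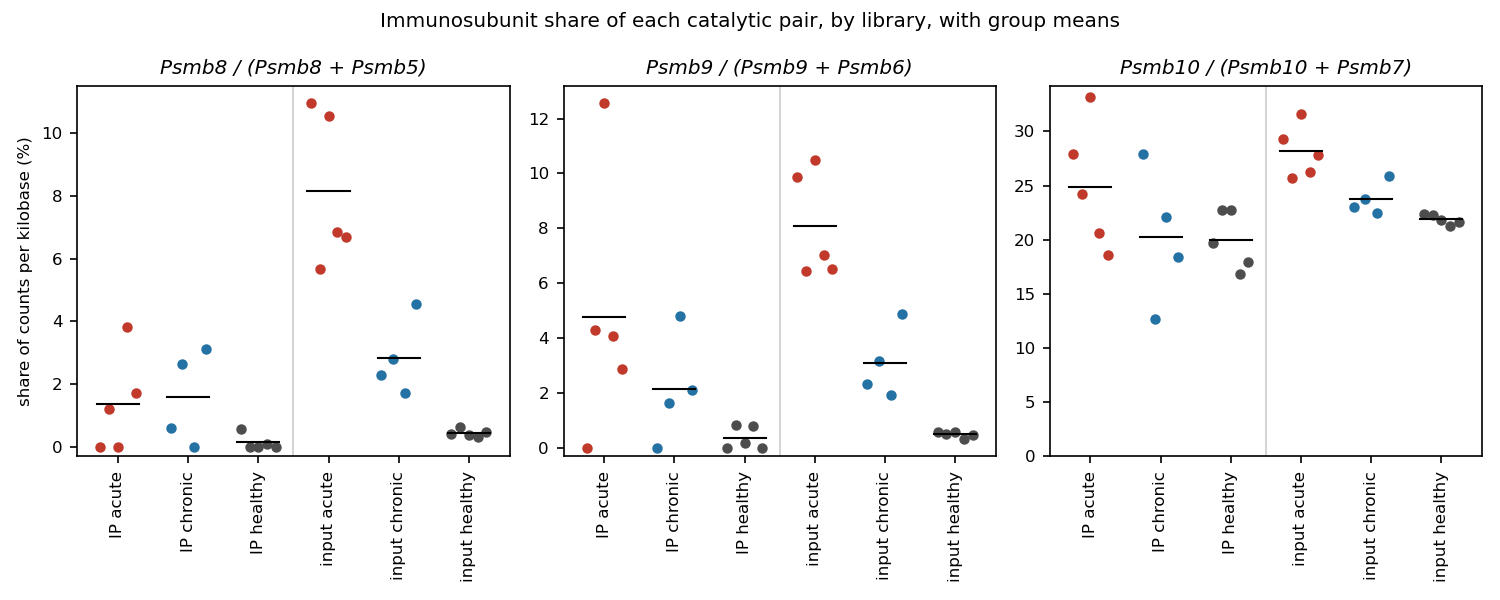
Share of each immunosubunit in its catalytic pair, in percent of counts per kilobase, for every library (points) and as group means (bars), IP groups left of the grey line and input groups right of it. In the input the Psmb8 and Psmb9 shares are highest in acute, intermediate in chronic and lowest in healthy libraries, while the Psmb10 share stays between 21.2% and 31.7%.

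In the IP of acute EAE, 1 of the 10 genes passed against healthy IP, where 0.0575% of the 13914 genes tested rose. That gene was H2-K1, with 105.5, 23.7, 12.4, 57.7 and 62.7 CPM in acute IP libraries, against 1.68, 4.66, 7.73, 5.59 and 9.77 CPM in healthy IP libraries. Every acute library was above every healthy one, but the acute values spread over almost an order of magnitude. The log2 change was 3.15 ± 0.60 (edgeR adjusted p = 0.0497). This call sits at the threshold: it was kept in 2 of the 10 fits that left out a library (adjusted p 0.0238 to 0.174) and was lost with DESeq2 size factors (0.0512) and with voom weights (0.0875).

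The other 9 genes did not pass in acute IP. Of the 10, H2-K1 included, 5 had an unadjusted p under 0.05 by edgeR, as had 871 of the 13914 genes tested. Tap2 had 20.3, 16.4, 17.7, 9.05 and 18.2 CPM in acute IP libraries, against 0, 0, 0, 1.14 and 0 CPM in healthy IP libraries. All 5 acute libraries were clear of the healthy ones, of which 4 held no count, and the log2 change of 6.11 ± 1.81 did not pass (edgeR adjusted p = 0.326). The fitted size rests on 18 counts in healthy IP 4: without that library, when no healthy count is left, it was 10.98, and without any other library it lay between 5.80 and 6.26. Tap1 had 9.88 to 16.9 CPM in acute IP libraries, against 0 to 2.67 CPM in healthy IP libraries, again without overlap (log2 change 3.64 ± 1.60, edgeR adjusted p = 0.689). B2m had 34.2 to 71.3 CPM in acute IP libraries, against 23.8 to 30.9 CPM in healthy IP libraries, without overlap but with a log2 change of only 0.84 ± 0.80 (edgeR adjusted p = 1). Higher values without overlap were thus seen for H2-K1, B2m, Tap1 and Tap2, 4 of the 10, against 1.34% of the genes tested in the IP. Tap1 and Tap2 were at 0 in 3 and 4 of the 5 healthy IP libraries. They passed the filter on low counts only through the EAE libraries, where they were higher, so this count is a description and not support. Nlrc5 had no count in any healthy IP library and 102 counts over the acute IP libraries, in 3 of 5. Against a floor of 3 counts over the healthy group, which covers counting error only, it was 37.7-fold higher in acute IP, with an adjusted p of 0.572 by edgeR. H2-D1 (log2 change 1.24 ± 0.56), Tapbp (1.17 ± 0.56), Psmb8 (2.87 ± 1.97), Psmb9 (2.63 ± 1.84) and Psmb10 (0.05 ± 0.27) had overlapping groups. The median log2 change of the 10 was 2.75, also with Nlrc5 set against that floor, and -0.04 for all genes tested. Nlrc5, Psmb8 and Psmb9 were at 0 in 5, 3 and 2 of the 5 healthy IP libraries. Like Tap1 and Tap2, they passed the filter only through the EAE libraries. The median and the count of unadjusted p-values are thus descriptions and not support. Voom with library weights instead called Tap2 and Nlrc5, with adjusted p-values of 0.0139 and 0.0326, and 380 of all genes tested.

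In chronic IP, H2-K1 was again the 1 gene of 10 that passed. It had 36.1, 29.2, 31.0 and 127.2 CPM in chronic IP libraries, against 1.68 to 9.77 CPM in healthy IP libraries, a log2 change of 3.25 ± 0.61 (edgeR adjusted p = 0.0267), where 0.18% of the genes tested rose. Even the 3 lower chronic libraries were above all healthy ones, although without chronic 4 the log2 change was 2.45 and the call was lost (edgeR adjusted p = 0.156). Of the 9 fits that left out a library, 3 kept the call, and the 5 without a healthy library did not. Chronic IP 4 also had 308 CPM of H2-D1, against 34.1 to 63.1 CPM in the other chronic IP libraries. The log2 change of H2-D1 over healthy IP, 1.43 ± 0.59, did not pass and was 0.27 at its lowest when 1 library was left out. In chronic IP 4 microglial markers summed to 206 CPM, against 50.7 to 64.8 CPM in the other chronic IP libraries. Its layer 5 markers summed to 1116 CPM, against 1452 to 1715 CPM in the other chronic IP libraries. The part of these cells in its class I values was not tested. B2m had 60.2, 22.5, 0 and 79.8 CPM in chronic IP libraries, so 1 library held no read of a gene present at 29.4 CPM or more in every input library. Nlrc5 was seen in chronic IP 2 alone (81 counts), 37.9-fold above the floor of the healthy group, which covers counting error only. Log2 changes over healthy IP that did not pass were 3.85 ± 1.65 for Tap1, 5.20 ± 1.77 for Tap2, 3.84 ± 2.10 for Psmb8 and 2.18 ± 1.87 for Psmb9. Those of B2m (0.61 ± 0.84), Tapbp (0.69 ± 0.59) and Psmb10 (-0.04 ± 0.28) were smaller. Of the 10, 5 had an unadjusted p under 0.05 by edgeR against healthy IP, as had 1494 of the 13914 genes tested. Tap1, Tap2 and Nlrc5, which passed the filter only through the EAE libraries, were among the 5. That count too is a description and not support. Between chronic and acute IP, 0 of the 10 genes passed by edgeR, 0 at an unadjusted p under 0.05, and 0 by voom. DESeq2 gave an adjusted p for 2 of the 10, H2-D1 and Psmb10, and called neither. Of all 13914 genes tested, 0 passed by edgeR, 1145 had an unadjusted p under 0.05, and DESeq2 called 180 and voom 60.

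**Figure D4:**
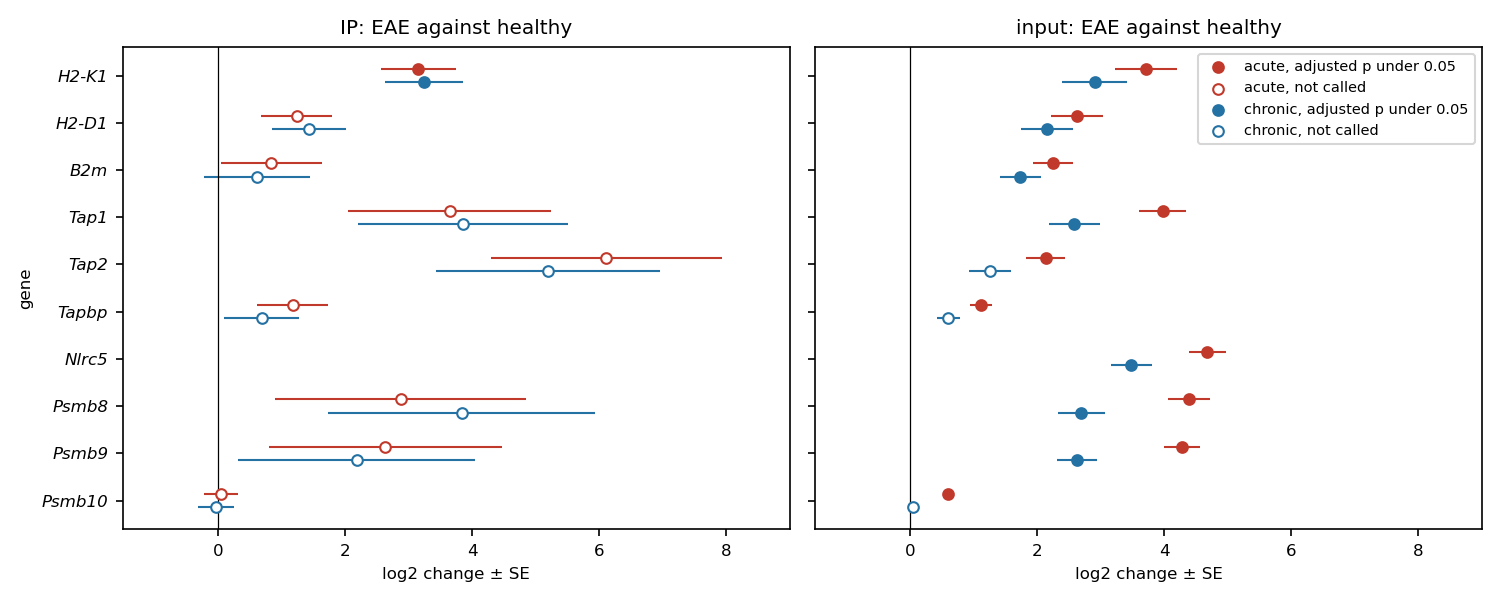
Log2 change ± SE (edgeR) of each gene in acute (red) and chronic (blue) EAE against healthy mice, in the IP (left) and the input (right), with filled points at an adjusted p under 0.05. Nlrc5 has no point in the IP because its healthy IP libraries hold no counts, and for each gene plotted in both panels the IP error bars are wider than the input ones.

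The zeros of the IP bear on these comparisons. Of the 140 IP values of the 10 genes, 30 were 0 and none lay between 1 and 9 counts, whereas the 140 input values included no 0 and reached down to 7 counts. This held beyond the class I genes: of 2811 genes with a healthy input level between 0.484 and 2.10 CPM, the range spanned by Nlrc5 to Tap2, 57.6% to 84.5% were at 0 in each healthy IP library, 11.9% to 90.6% in each acute IP library and 66.6% to 86.1% in each chronic IP library. In healthy and chronic IP libraries most genes of that input level were thus at 0, as were many values of Tap1, Tap2, Nlrc5, Psmb8 and Psmb9. Of the 2811 genes, 32.8% were at 0 in all healthy IP libraries, as Nlrc5 was. The share was 7.54% for all acute and 49.6% for all chronic IP libraries. The fold values of Nlrc5 against the floor are therefore not lower bounds.

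Markers of other cells were also followed in both fractions, and the astrocyte sums were higher in EAE in both. In acute input, 7 of 12 microglial markers rose and 1 fell, and 8 of the 9 leukocyte markers tested (13 listed) rose, among them Cd52 (log2 change 3.54 ± 0.32) and the monocyte gene Plac8 (7.06 ± 0.66). The leukocyte markers summed to 22.6 to 42.8 CPM in acute input libraries and 10.4 to 22.7 CPM in healthy input libraries, and the microglial markers to 166 to 255 CPM in acute input libraries and 86.0 to 118 CPM in healthy input libraries. In the IP, leukocyte markers summed to 0 to 12.2 CPM in acute libraries and 0 to 12.3 CPM in healthy libraries, and 0 of the 3 tested passed by edgeR, with 0 at an unadjusted p under 0.05. Microglial markers summed to 7.15 to 94.0 CPM in acute IP libraries and 25.1 to 61.6 CPM in healthy IP libraries. Astrocyte markers summed to 1550 to 2300 CPM in acute IP libraries and 911 to 1270 CPM in healthy IP libraries, with Gfap called (log2 change 2.81 ± 0.44, edgeR adjusted p = 0.0282). In acute input 3 of 12 astrocyte markers rose. They summed to 2020 to 2850 CPM in acute input libraries, without overlap with the 1450 to 1820 CPM of healthy input libraries. In chronic input, 7 of the 9 leukocyte markers tested rose, as did 2 of 12 microglial markers (C1qb and Tyrobp) and 2 of 12 astrocyte markers (Gfap and Aldoc). The leukocyte markers summed to 15.2 to 38.8 CPM in chronic input libraries, and the microglial markers to 123 to 255 CPM, against the healthy input sums above. Astrocyte markers summed to 1920 to 2910 CPM in chronic input libraries, without overlap with healthy input libraries. In chronic IP libraries, leukocyte markers summed to 4.67 to 11.8 CPM, microglial markers to 50.7 to 206 CPM and astrocyte markers to 1490 to 3230 CPM, the last without overlap with healthy IP libraries. Markers of endothelial and mural cells summed to 61.0 to 134 CPM in healthy IP libraries and 64.6 to 84.6 CPM in healthy input libraries. Of these 12 markers, 10 had a positive log2 change in healthy IP over healthy input, with 1 called higher and 0 lower by edgeR. Positive changes there were seen for 2 of 12 microglial, 3 of 12 astrocyte and 1 of 12 oligodendrocyte markers. The part of these cells in the class I values of either fraction was not tested.

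IP and input were also compared within each phase. In healthy mice H2-D1 was higher in IP than in input, with 12.1, 45.8, 53.8, 23.4 and 80.4 CPM in IP libraries, against 15.3, 13.2, 23.7, 15.8 and 15.9 CPM in input libraries. Healthy IP 1 lay below all input libraries and the other healthy IP libraries near or above the top of the input range (log2 change 1.53 ± 0.48, edgeR adjusted p = 0.0189). Psmb10 was also higher in healthy IP, at 76.9 ± 16.4 CPM against 54.2 ± 2.06 CPM in healthy input (log2 change 0.68 ± 0.19, edgeR adjusted p = 0.00983). Nlrc5 was lower, with 0 counts in IP and 45 in input (edgeR adjusted p = 0.0186). The floor of 3 counts, which covers counting error only, lay 13.4-fold below the input. Tap2, with 0.229 ± 0.512 CPM in healthy IP and 2.10 ± 0.392 CPM in healthy input, had groups that did not overlap and did not pass by edgeR (log2 change -2.98 ± 1.15, adjusted p = 0.0648), but was called by DESeq2 (0.00550), voom (0.0230) and edgeR without healthy pair 4 (4.48e-04). Leaving out 1 IP and input pair lost the call of H2-D1 without pair 2 or 5 (edgeR adjusted p 0.0712 and 0.147), of Psmb10 without pair 3 (0.0696) and of Nlrc5 without pair 1 (0.0519), and voom did not call H2-D1 (0.353). Those calls, 2 higher and 1 lower of 10, stand beside 7.2% of genes higher and 14.4% lower among the 16580 tested. In chronic mice Psmb10 passed (log2 change 0.60 ± 0.22, edgeR adjusted p = 0.0361), 1 of 10, where 8.74% of genes tested were higher. In acute mice 0 of 10 passed by edgeR, where 18.7% of genes tested passed in either direction. An unadjusted p under 0.05 was found for 2 of 10, and for 4769 of the 16580 genes tested. DESeq2 called 2 of 10 and 3884 of all genes, and voom 1 of 10 and 6856 of all genes. Tests also asked whether the change from healthy differed between IP and input. By edgeR 0 of 10 passed for acute EAE and 0 of 10 for chronic EAE. Among all genes tested, 0.00603% passed for acute and 1.03% for chronic EAE. At an unadjusted p under 0.05 there were 2 and 2 of the 10, beside 1901 and 2734 of the 16580 genes tested. DESeq2 called 1 and 2 of the 10, beside 363 and 958 of all genes. The differences of the 9 genes other than Nlrc5 ranged from -1.65 to 3.99 on the log2 scale for acute and from -1.11 to 3.96 for chronic EAE, so neither the presence nor the absence of a change in the IP like that of the input was shown for these genes.

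Other genes of the pathway were counted in lists chosen by function, beside 11.1% of all genes tested that rose in acute and 2.33% in chronic input. The lists were not tested against each other. Of 16 other class I and class I-like heavy chains, 13 were tested and 8 rose in acute input, among them H2-Q4 (log2 change 4.20), H2-Q7 (4.53), H2-T22 (1.17) and H2-T23, which encodes the Qa-1 molecule (2.26). In chronic input 4 of 13 rose: H2-Q4 (3.76), H2-Q6 (4.45), H2-Q7 (3.94) and H2-T23 (1.07). These genes are near copies of each other: 9.63% of the 50-base stretches of H2-K1 transcripts and 12.8% of those of H2-D1 also occur in transcripts of other genes, mostly class I genes, so reads may be split or lost between them, and values of single class I heavy chains are uncertain to that extent. At 100 bases the shares were 0.957% and 3.59%.

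Of 13 trimming and loading helpers, 4 passed in acute input and 6 had an unadjusted p under 0.05. Those that rose were 2 of 13, a share near that of all genes, the aminopeptidase gene Erap1 (0.88) and the tapasin-related Tapbpl (0.52), and 2 fell, Tpp2 by 0.23 and Blmh by 0.13 on the log2 scale. In chronic input 0 of 13 passed by edgeR, with 1 at an unadjusted p under 0.05. The proteasome activator genes Psme1 (0.57) and Psme2 (0.82) rose in acute input, 2 of 4, and in chronic against healthy input 0 of 4 passed by edgeR, with 1 at an unadjusted p under 0.05. Of 17 tested genes of class I transcription and interferon-gamma signalling, 6 rose in acute input. They included the class II transactivator Ciita (log2 change 2.91 ± 0.33), Irf1 (2.48) and Nfkb1 (0.36). In chronic input 3 passed, among them Ciita (1.66) and Irf1 (1.21). Against acute input both were lower in chronic input, with log2 changes of -1.25 and -1.27.

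Some counts are shared by position. The counting was unstranded, and 212 exon bases of Tap1 overlap Psmb9 on the other strand (of 5476 in Tap1 and 3659 in Psmb9), 698 of the 3781 of Tap2 overlap Gm15821 and Gm20496, 726 of the 3296 of Tapbp overlap Gm19412 and Zbtb22, and 186 of the 2736 of Psmb8 overlap Gm20496. H2-K1, H2-D1, B2m, Nlrc5 and Psmb10 share no exon base with another counted gene.

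Among the 14 input libraries, the 10 genes were compared with their own median profile, each centred on its healthy mean. H2-D1, H2-K1 and Tap1 lay closest to that median, with root mean square differences of 0.345, 0.477 and 0.495 on the log2 scale, and Psmb10 and Tapbp farthest, with 1.90 and 1.46. Only the 16254 genes outside the gene lists were ranked by nearness to the median profile. The other class I genes, the interferon-gamma signalling genes and the cell markers of the lists could therefore not appear. Nearest of those ranked were Lyz2, the lysozyme of myeloid cells (0.221), the complement gene C4b (0.307), the hydroxycarboxylic acid receptor gene Hcar2 (0.355), the interferon-induced Ifitm3 (0.357) and the macrophage lectin gene Siglec1 (0.387). Lyz2 changed by 3.27 on the log2 scale in acute and by 2.25 in chronic input against healthy input, C4b by 3.20 and 2.65, and Ifitm3 by 3.12 and 1.78. Hcar2 changed by 7.35 and 5.56 and Siglec1 by 4.77 and 3.75. Both changed more than the median of the 10 genes (3.17 and 2.37), although their profiles ranked among the nearest. The 2 measures are unlike, since a prior count of 2 in log CPM shrinks differences of genes with counts near 0. Nearness of profile therefore does not mean a change of the same size. The likeness is a description over 14 libraries that share the 3 phases and chronic input 4.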

How the data were processed

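RNA was measured by poly A RNA sequencing in 14 IP and 14 input libraries. The authors deposited counts per gene, summed over each gene's exons for read pairs with featureCounts 1.5.1, without strand, using Ensembl release 79 of GRCm38, per the file headers. STAR 2.4 and DESeq2 are named in the submitters' processing notes.

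The 10 genes, the gene lists and the tests were chosen with earlier results of these data known. Raw counts were analysed with edgeR 4.0.16 in R 4.3.3: filterByExpr (minimum count 10, minimum total 15), TMM scaling and the robust quasi-likelihood F test, with Benjamini-Hochberg adjustment over all genes tested and calls at an adjusted p under 0.05. IP (13914 genes) and input (16381 genes) were fitted apart for phases, and all 28 libraries together (16580 genes) for IP against input. SE is the absolute log2 change over the square root of F. CPM are on the TMM-scaled size of each fraction, means are given with SD, and a prior count of 2 entered log CPM. Where a group was at 0, its floor was set at 3 counts summed over its libraries, for counting error only. Shares were tested with exact two-sided permutation tests in Python 3.11.15 with scipy 1.17.1. Alternatives used DESeq2 1.42.0 and voom in limma 3.58.1. The fitting was tested on simulated counts. Genes outside the 10 were named as up to 4 per list with the smallest p, and the 5 nearest profiles among genes outside the lists. Of 43629 genes, 42462 had a symbol. The header names 36 alignment files, of which the columns of 28 were used, and the others were not analysed here. Promoter windows are RefSeq GRCm38.p6. For some genes of the lists no values are reported here, although the lists' counts include them.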

Additional observations from a re-analysis of the deposited data

Results flagged for a closer look

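In 13 of 77 groups of 4 or 5 libraries (the values of each gene and each share), the highest or lowest library lay farther from the rest than Dixon's critical value allows. For independent groups of normally distributed values, chance would flag about 1 in 20, which is about 3.9 of 77. These groups share libraries between genes and hold many zeros, so 3.9 is not the number expected for these data.

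Of the 13, 5 are chronic input 4, which held 89.27 CPM of H2-K1, 160.3 of H2-D1, 208.8 of B2m, 9.96 of Tap2 and 29.25 of Tapbp, each the highest of the 4 chronic input libraries. A further 2 are chronic IP 4, with 127.2 CPM of H2-K1 and 308.0 of H2-D1. Both of these libraries also held the highest sums of microglial, astrocyte and oligodendrocyte markers among the chronic libraries of their fraction. Whether they come from 1 mouse is not stated, and the part of these cells was not tested.

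In the acute IP, library 1 had 130.3 CPM of Psmb10, above the other 4. In the chronic IP, library 2 had 6.23 CPM of Nlrc5 where the others had 0. In healthy mice, input 3 had 23.65 CPM of H2-D1, IP 4 had 1.144 CPM of Tap2 where the others had 0, and IP 1 had 4.009 CPM of Psmb8 and with it a Psmb8 share of 0.5619%.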

How the results depend on the processing

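The acute calls of all 10 genes in the input held under every alternative run: size factors of DESeq2, its Wald test, no filter on low counts, voom with library weights, a replicate block and each library left out. Elsewhere the number of genes called out of 10 moved, and the causes were not tested. In the input, voom called 4 genes in chronic against healthy (7 in the main test) and 8 in chronic against acute (5), and leaving out 1 library gave 4 to 10 in chronic against acute, the 10 without chronic 4. In acute against healthy IP (1), DESeq2 size factors called 0, voom 2, and fits without 1 library 0 to 1. In chronic against healthy IP (1), voom called 0 and fits without 1 library 0 to 1. The Wald test called 0 in both, but gave an adjusted p for only 2 and 3 of the 10 genes there, and none for H2-K1. In healthy IP against healthy input (3), fits without a library pair called 2 to 4. In acute IP against acute input (0), size factors called 1, the Wald test 2 and voom 1, beside 3221, 3884 and 6856 of all genes tested. In chronic IP against chronic input (1), size factors and no filter called 0, and fits without a library pair 0 to 2. For the difference between IP and input changes (0), the Wald test called 1 for acute and 2 for chronic, beside 363 and 958 of all genes tested. Fits without a library called 0 to 1 for each.

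Same-numbered libraries of 2 groups deviated together with correlations between -0.111 and 0.186 and in no comparison was every pair over 0.1, so the numbers were not taken as pairs. With the replicate block, 10 genes were called in acute and 6 in chronic against healthy input and 4 in chronic against acute input, 0 in acute IP and 0 in chronic IP (both against healthy IP), 3 in healthy IP against healthy input and 0 in chronic IP against chronic input. Of the IP libraries, 3 of 5 acute, 3 of 4 chronic and 4 of 5 healthy ones correlated best with the input library of their own number, a hint of pairing. Over all 9 pairs of groups, these included, it was 17 of 40. The pairs within a fraction gave 0 of 5, 1 of 4 and 0 of 4 in the input and 1 of 5, 2 of 4 and 3 of 4 in the IP. Same-numbered IP and input libraries also carry the same number in their sample descriptions, but no label says that they come from 1 mouse. The main IP against input tests used no pairing.

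Signs that turned belonged to values that had not passed. With voom, Psmb10 was at -0.039 in acute IP and 0.012 in chronic IP, and B2m at -0.521 in chronic IP. Without 1 library, Psmb10 ranged from -0.003 to 0.086 in chronic input, from -0.197 to 0.176 in acute IP and from -0.249 to 0.119 in chronic IP, and Nlrc5 from 0.000 (both groups at 0 counts, without chronic 2) to 8.03 in chronic IP, all against healthy.

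For the shares, leaving out 1 library left too few arrangements for the chronic tests to pass after adjustment. In percentage points, chronic minus healthy input ranged from 1.83 to 2.775 for Psmb8, 1.993 to 2.97 for Psmb9 and 1.162 to 2.31 for Psmb10, and chronic minus acute input from -5.919 to -4.596 for Psmb8 and -5.584 to -4.386 for Psmb9. The Psmb9 difference of acute and healthy IP ranged from 2.448 to 5.586, passing in 1 of 10 fits. In the IP, the Psmb8 share ranged from -0.2657 to 0.8597 in chronic minus acute and the Psmb10 share from -2.254 to 2.83 in chronic minus healthy, with no call. Counts not divided by gene length changed no call, but they changed the sizes of the shares, as given above for acute input. IP libraries held as few as 6198088 counts, and the part of depth in their zeros was not tested.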
